A study of Mus musculus with 6 samples.

Results

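Organic ion and drug transporters carry charged metabolites, hormones, toxins and medicines across cell membranes. The genes described here are those whose symbol starts with Slc22a, Slco, Slc47a or Abcc plus a digit, together with Abcb1a, Abcb1b and Abcg2. By that rule, 56 of the 23785 gene symbols with a probe belonged to the group, and 47 of them were among the 17136 genes tested. The rule used symbols alone and no measured value.

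Whole mouse kidneys were measured on 6 one-colour arrays, 1 per sample, with 3 samples labelled Pck1-CKO and 3 labelled WT. Pck1-CKO mice were Pck1 flox/flox/γGT-Cre tg/+, so that Pck1, the cytosolic enzyme of gluconeogenesis, was targeted in the renal proximal tubule, where γGT-Cre is active. WT stands for littermates matched for age and sex, not for mice without engineered alleles. The control genotypes of the breeding were Pck1 flox/+/γGT-Cre tg/+, with the transgene, and Pck1 flox/+ or Pck1 flox/flox, without it, and which of these each WT sample had is not stated in the labels. All mice were killed at 32 weeks, and the strain is given as C57BL/6J.

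In the kidney these proteins work in series. Uptake carriers on the blood side of proximal tubule cells (the organic anion and organic cation transporters of the Slc22a family, and some organic anion transporting polypeptides of the Slco family) load the cell, and exporters on the urine side (the multidrug and toxin extrusion proteins of the Slc47a family, and ATP-driven pumps of the Abcc, Abcb1 and Abcg2 kinds) empty it. Uptake of organic anions runs in exchange for dicarboxylates such as α-ketoglutarate, and transport of cations follows the membrane potential on one side and a proton gradient on the other. Several of the genes are expressed unequally in male and female mouse kidney.

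Not every gene that the rule takes encodes such a carrier. Abcc8 and Abcc9 encode the sulphonylurea receptor subunits of ATP-sensitive potassium channels, Slc22a13b is annotated as a transcribed pseudogene, and Slco6b1 as a long non-coding RNA. They were kept because the rule names them.

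On chromosome 19, 8 of the genes follow one another with no other coding gene between them in the RefSeq annotation of GRCm38.p6, in the order Slc22a19, Slc22a26, Slc22a27, Slc22a28, Slc22a29, Slc22a30, Slc22a8 and Slc22a6. The 250 bases before the annotated start of Slc22a28 and Slc22a30 were the most alike of the 28 pairs in this row, with 93.0% identity (238 of 256 alignment columns), while the other 27 pairs had between 43.7% and 65.2%. They are shown because both genes had higher signals in all Pck1-CKO samples than in any WT sample, and capitals mark the 12 bases in each that differ from the other or have no partner in the alignment. The window of Slc22a28 is chr19:8131983-8132232 and that of Slc22a30 chr19:8405106-8405355, both on the minus strand of GRCm38.p6 (RefSeq promoter sequences, 5′ to 3′).
Slc22a28: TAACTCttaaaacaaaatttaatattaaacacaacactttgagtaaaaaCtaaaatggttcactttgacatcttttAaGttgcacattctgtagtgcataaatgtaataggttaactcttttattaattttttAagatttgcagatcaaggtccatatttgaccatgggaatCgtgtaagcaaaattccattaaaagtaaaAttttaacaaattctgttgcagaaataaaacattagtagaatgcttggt
Slc22a30: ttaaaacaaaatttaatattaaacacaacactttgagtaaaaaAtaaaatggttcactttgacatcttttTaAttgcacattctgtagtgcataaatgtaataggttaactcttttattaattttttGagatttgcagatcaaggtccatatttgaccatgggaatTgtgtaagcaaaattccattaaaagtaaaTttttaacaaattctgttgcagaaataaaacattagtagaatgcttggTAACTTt

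RefSeq promoter windows were at hand for 45 of the 56 genes, 54 windows in all, since some genes have several. Motifs were searched in the 250 bases before the start on both strands. The core of the antioxidant response element, TGACNNNGC, was present in 9 of 54 windows (8 of 45 genes), against 10.2% of 32851 windows of all genes. The core bound by the aryl hydrocarbon receptor, GCGTG, was present in 8 of 54 windows (7 of 45 genes), against 28.2% of all windows. TATAAA was present in 6 of 54 windows (5 of 45 genes), against 12.4%, and the HNF4A site CAAAGTCCA in 0 of 54, against 0.384%. Of the 8 genes that passed the test below, 6 had a window, and these held TGACNNNGC at Slco4c1 and TATAAA at Slco1a1. The matches at Slco1a1 were on the opposite strand, so that the gene's own strand reads TTTATA. A match is only a run of letters in this window.

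Values are log2 of the processed signal relative to the 75th percentile of its array, called the log2 signal here, so levels can be compared between samples for 1 gene but not between genes. Between 37118 and 38708 of 56605 probes lay well above background on an array, and with 3 arrays a group the precision of each value is limited. The 1 probe of Pck1 had log2 signals of 6.44, 6.60 and 6.90 in the samples labelled Pck1-CKO and 6.29, 6.32 and 5.63 in those labelled WT (log2 change 0.56 ± 0.22 SE, limma adjusted p = 0.152). Whether that probe lies in the floxed stretch is not known from the labels or headers, so it cannot check them, and directions below are those of the labels. All WT samples lay in one row of the slide and all Pck1-CKO samples in the other, so slide row cannot be told apart from genotype. Since no label ties each sample to a mouse of its own, p-values cover only the spread between the samples, which may be technical.

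Of the 47 genes tested, 2 rose and 5 fell in Pck1-CKO kidneys, and a further gene, Slc22a14, passed as lower on a faint signal. Slco3a1 and Slco1a1, organic anion transporting polypeptides, rose by 1.45-fold and 1.43-fold. The drug efflux pump genes Abcb1a (1.79-fold) and Abcc1 (1.29-fold), the organic anion transporter genes Slc22a19 (1.35-fold) and Slc22a26 (1.32-fold) and the uptake carrier gene Slco4c1 (1.17-fold) fell. Slc22a14 was tested only because its WT signals were well above background, so it had to differ, and it is set apart from the other 7. The fit was limma's, with Benjamini-Hochberg adjustment over all 17136 genes and a threshold of 0.05. It called 8.04% of all genes, and 17% of the 47 with Slc22a14 counted. An unadjusted p under 0.05 was found for 20 of the 47, or 42.6%, and for 31.2% of all genes. By direction it called 4.34% of all genes higher, against 4.26% of these genes, and 3.7% of all genes lower. Over genes well above background on at least 1 array of each group, which leaves out Slc22a14, it called 3.64% of 17079 genes lower and 5 of 46 transporter genes, or 10.9%.

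Some calls were lost whichever sample was left out, and for 4 of the 6 samples all were lost. With Pck1-CKO 1, Pck1-CKO 2, WT 1 or WT 2 left out, 0 of the 47 genes passed limma's test, while the share of all genes called was between 0.146% and 0.408%, and between 15 and 17 of the 47 had an unadjusted p under 0.05. Without WT 3, 6 of the 8 passed, all but Slco1a1 and Slco3a1, together with Slc22a13b and Slco1a6. Without Pck1-CKO 3, 7 of the 8 passed, all but Slco4c1, and the calls came to 3 higher and 10 lower, with 8.93% of all genes called. All 8 genes kept the direction of their change in each of the 15 alternative settings.

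Across the 47 genes the median log2 change was -0.0024, beside 0.0091 over all genes tested, and 21 changes were positive (44.7%, beside 52.2% of all genes) and 26 negative. The median size of the change, without its sign, was 0.21, beside 0.12 over all genes. In 21 of the 47, or 44.7%, the Pck1-CKO and WT samples did not overlap, which held for 38.3% of all genes. Of those 21, 10 were higher in Pck1-CKO (21.3% of the 47, beside 21.9% of all genes) and 11 lower (23.4%, beside 16.4%).

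By family, Slc22a had 25 of 26 genes tested, of which 0 rose and 3 were called lower, Slc22a14 among them. Slco had 8 of 15 tested, with 2 that rose and 1 that fell. Of the Abcc genes, 9 of 10 were tested, and 0 rose and 1 fell. Abcb1a, Abcb1b and Abcg2 were all tested, and 1 fell. Both Slc47a genes were tested and neither passed. The 9 genes not tested were Abcc12, Slc22a20, Slco1a5, Slco1b2, Slco1c1, Slco5a1, Slco6b1, Slco6c1 and Slco6d1, with no probe well above background on 3 or more arrays. Among the 47, Slc22a14 passed that filter through the WT samples alone.

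**Figure D1:**
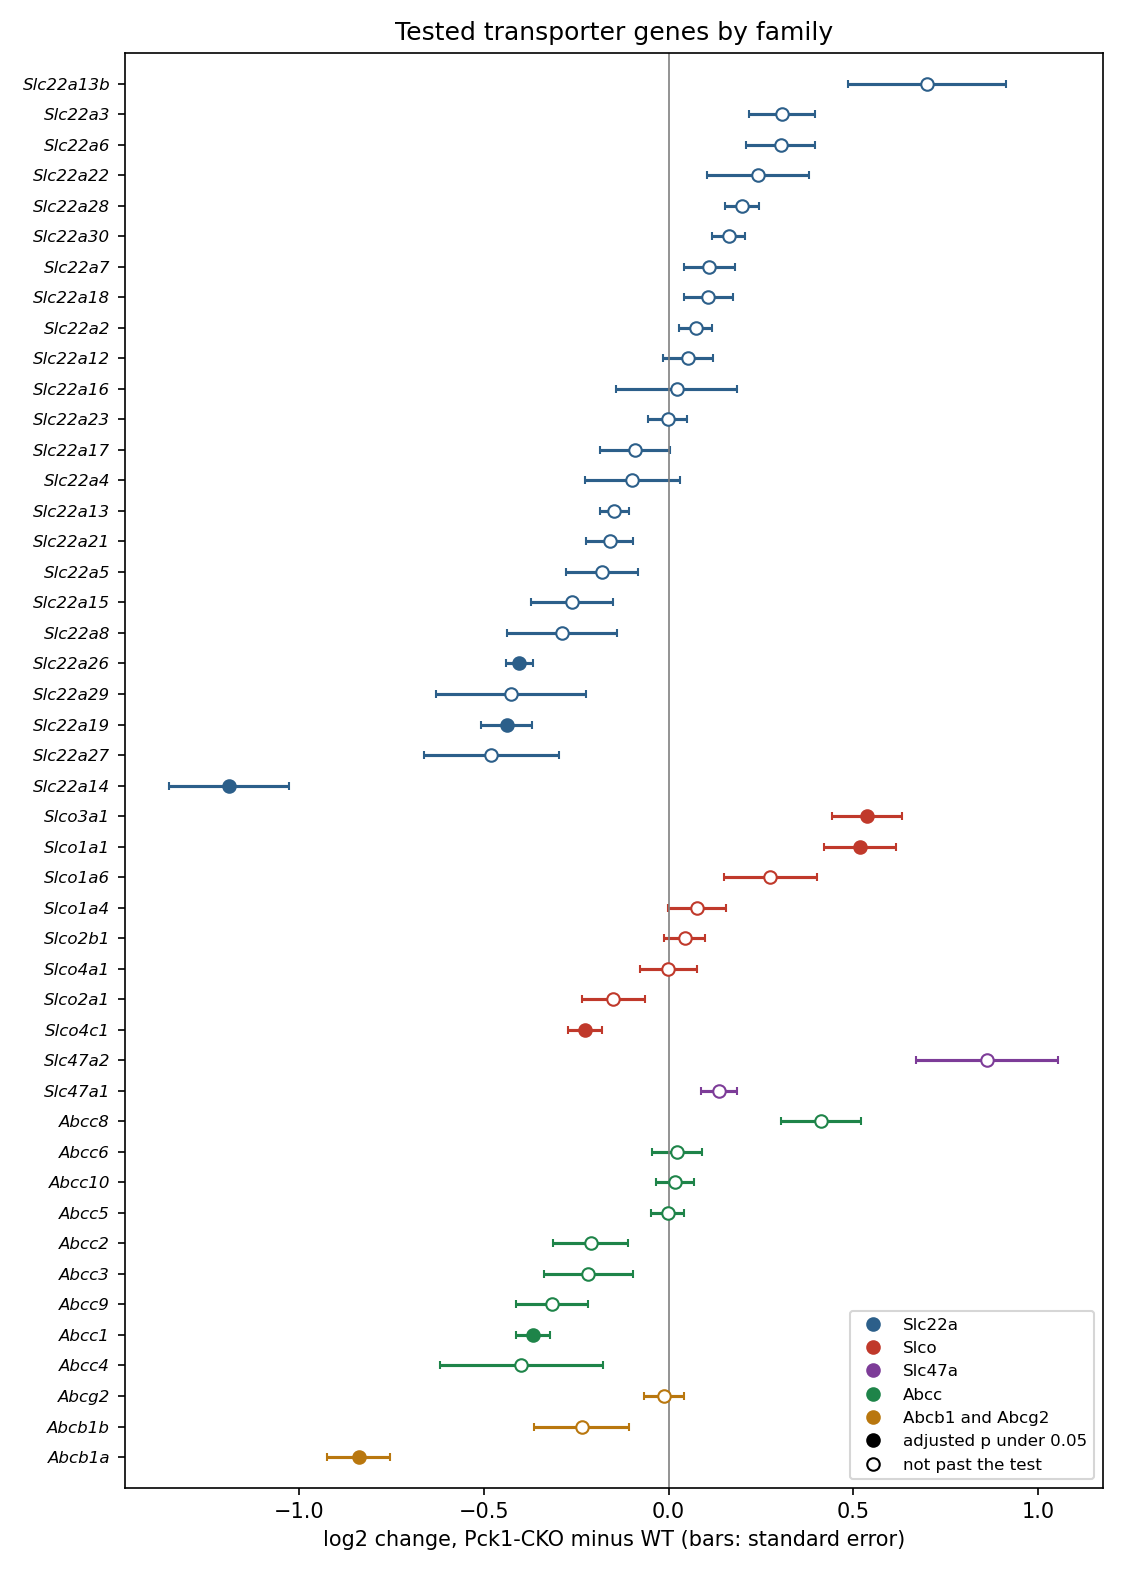
Log2 change (Pck1-CKO minus WT, horizontal axis) of the tested genes reported here, grouped by family, with standard errors from the limma fit as bars and filled points for an adjusted p under 0.05. The changes run from -1.19 (Slc22a14) to 0.86 (Slc47a2), and the 8 genes that passed the test lie on both sides of 0.

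Slc22a6 and Slc22a8, the main uptake carriers for organic anions on the blood side of the proximal tubule, did not pass the test. Slc22a6 (OAT1) had log2 signals of 7.12, 7.11 and 6.88 in Pck1-CKO and 6.76, 6.60 and 6.84 in WT kidneys (log2 change 0.30 ± 0.09 SE, 95% interval 0.07 to 0.54, adjusted p = 0.0967). Every Pck1-CKO sample lay above every WT sample, the highest WT sample being close to the lowest Pck1-CKO sample. Slc22a8 (OAT3) had 3.85, 3.91 and 4.37 in Pck1-CKO and 4.28, 4.27 and 4.46 in WT kidneys (-0.29 ± 0.15, interval -0.66 to 0.08, adjusted p = 0.246). Here Pck1-CKO 3 lay among the WT samples, whereas the other Pck1-CKO samples lay below all of them. Slc22a7, which encodes OAT2, had 6.08, 6.02 and 5.95 in Pck1-CKO and 5.97, 5.96 and 5.79 in WT kidneys (0.11 ± 0.07, adjusted p = 0.317), and the groups overlapped.

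Among the anion carriers with narrower or less studied substrates, 2 fell. Slc22a26, one of a group of related genes of rodents, had log2 signals of 0.82, 0.81 and 0.79 in Pck1-CKO and 1.23, 1.22 and 1.18 in WT kidneys. The means were 0.81 ± 0.01 in Pck1-CKO and 1.21 ± 0.03 in WT (SD, n = 3 each), a log2 change of -0.40 ± 0.04 SE (interval -0.49 to -0.31, limma adjusted p = 0.0149). The groups were far apart compared with the spread within either. Slc22a19, which encodes OAT5, a carrier of organic anions on the urine side of the late proximal tubule, had 2.02, 2.16 and 2.23 in Pck1-CKO and 2.54, 2.65 and 2.54 in WT kidneys (-0.44 ± 0.07, adjusted p = 0.0307). No Pck1-CKO sample reached the lowest WT sample.

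The neighbours of these genes on chromosome 19 did not share 1 direction. In the order of the chromosome, the log2 changes were -0.44 for Slc22a19, -0.40 for Slc22a26, -0.48 for Slc22a27, 0.20 for Slc22a28, -0.43 for Slc22a29, 0.16 for Slc22a30, -0.29 for Slc22a8 and 0.30 for Slc22a6, and only Slc22a19 and Slc22a26 passed the test. Slc22a28 had log2 signals of 4.42, 4.44 and 4.35 in Pck1-CKO and 4.17, 4.19 and 4.26 in WT kidneys (adjusted p = 0.0548). Slc22a30, whose promoter window is nearly the same, had 5.79, 5.80 and 5.74 in Pck1-CKO and 5.61, 5.57 and 5.67 in WT kidneys (adjusted p = 0.0744). Both were higher in all Pck1-CKO samples without passing the test, and second probes of both gave differences of the same sign (0.38 for Slc22a28 and 0.28 for Slc22a30). Whether probes of such close relatives also bind each other's transcripts was not tested.

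Within the row, Pck1-CKO 3 stood apart for 3 of the genes with negative changes. Slc22a27 had -3.24, -3.11 and -2.56 in Pck1-CKO and -2.44, -2.60 and -2.43 in WT kidneys (log2 change -0.48 ± 0.18, adjusted p = 0.145). Slc22a29 had -1.16, -0.91 and -0.41 in Pck1-CKO and -0.57, -0.28 and -0.36 in WT kidneys (-0.43 ± 0.20, adjusted p = 0.213). For both, as for Slc22a8, Pck1-CKO 3 lay within the WT range while the other 2 Pck1-CKO samples lay below it. Without Pck1-CKO 3 all 3 genes passed limma's test, with log2 changes of -0.68 for Slc22a27 (adjusted p = 0.0215), -0.64 for Slc22a29 (adjusted p = 0.0498) and -0.45 for Slc22a8 (adjusted p = 0.0384). Leaving out the Pck1-CKO sample nearest to WT had to widen these differences, so the passes are no independent evidence. With other samples left out, the log2 changes came as near 0 as -0.34 for Slc22a27, -0.26 for Slc22a29 and -0.19 for Slc22a8, and none of the 3 passed.

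**Figure D2:**
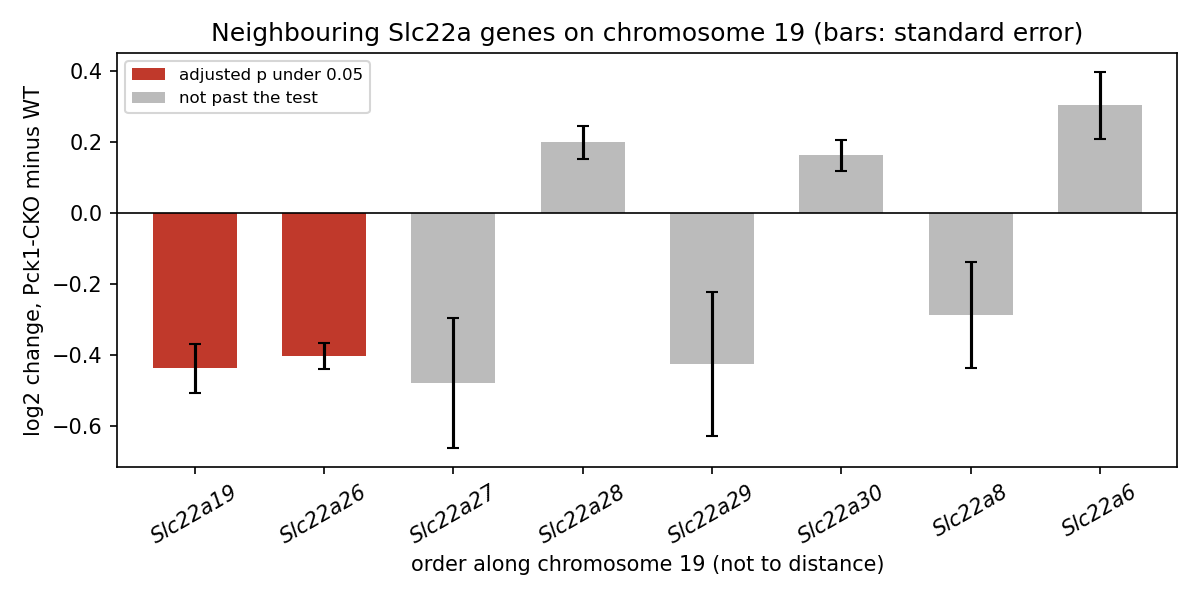
Log2 change (Pck1-CKO minus WT, vertical axis) of the 8 Slc22a genes in their order along chromosome 19 (horizontal axis, order only), with standard errors from the limma fit as lines and red bars for an adjusted p under 0.05. Slc22a28, Slc22a30 and Slc22a6 lie above 0, and Slc22a19, Slc22a26, Slc22a27, Slc22a29 and Slc22a8 below it.

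The urate carriers Slc22a12 and Slc22a13 did not pass the test. Slc22a12, which encodes the urate carrier URAT1, had log2 signals of 4.84, 4.69 and 4.62 in Pck1-CKO and 4.70, 4.65 and 4.64 in WT kidneys (0.05 ± 0.07, interval -0.11 to 0.22, adjusted p = 0.628). Slc22a13, which encodes OAT10, a carrier of nicotinate and urate, had 5.21, 5.14 and 5.14 in Pck1-CKO and 5.33, 5.30 and 5.30 in WT kidneys (-0.15 ± 0.04, adjusted p = 0.0752). All its Pck1-CKO samples lay below the WT samples. Its neighbour Slc22a13b, the pseudogene, had -1.61, -1.65 and -1.90 in Pck1-CKO and -2.54, -2.75 and -1.97 in WT kidneys (0.70 ± 0.21, adjusted p = 0.0937), higher in Pck1-CKO with a wide spread in WT. Slc22a22, which encodes a prostaglandin carrier, had a log2 change of 0.24 ± 0.14 (adjusted p = 0.287) with overlapping groups.

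Slc22a14, known in mice from sperm, was called lower by the fit (limma adjusted p = 0.0255), which is no independent evidence, since it entered the test through the WT samples alone. It had log2 signals of -6.17, -6.39 and -6.13 in Pck1-CKO, where no array had it well above background, and -4.74, -5.05 and -5.34 in WT kidneys. On the processed signal it was at least 1.72-fold lower in Pck1-CKO. That bound sets the WT mean against the lowest signal well above background on each Pck1-CKO array. With background correction by normexp, the log2 change was -0.21, a smaller difference, so the bound holds for the processed signal only.

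The organic cation and carnitine carriers described here did not pass the test. Slc22a2 (OCT2), the kidney's uptake carrier for organic cations, had log2 signals of 5.45, 5.47 and 5.36 in Pck1-CKO and 5.35, 5.33 and 5.37 in WT kidneys (0.07 ± 0.05, interval -0.04 to 0.19, adjusted p = 0.319), and the groups overlapped. Slc22a3 (OCT3) had -2.83, -2.89 and -2.79 in Pck1-CKO and -2.99, -3.13 and -3.31 in WT kidneys (0.31 ± 0.09, adjusted p = 0.0851), with all Pck1-CKO samples higher. Slc22a5 (OCTN2), which recovers carnitine from the urine, had a log2 change of -0.18 ± 0.10 (adjusted p = 0.26), and Slc22a21 (OCTN3), its close relative in mice, had -0.16 ± 0.06 (adjusted p = 0.156). For both, every Pck1-CKO sample lay below every WT sample.

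The remaining Slc22a genes were Slc22a4 (OCTN1, an ergothioneine carrier), Slc22a15, Slc22a16, Slc22a17 (the receptor of lipocalin-2), Slc22a18 and Slc22a23. Slc22a18 had log2 signals of 7.0, 6.92 and 6.93 in Pck1-CKO and 6.88, 6.72 and 6.93 in WT kidneys. The log2 changes of the 6, by the probe used, lay between -0.26 (Slc22a15) and 0.11 (Slc22a18), and their adjusted p between 0.174 and 0.982. Second probes differed by more, by -0.35 without overlap for Slc22a17 and by 0.24 with overlap for Slc22a18. None of these 6 passed limma's test.

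Of the organic anion transporting polypeptides, Slco3a1 and Slco1a1 rose. Slco3a1, whose protein carries prostaglandins and thyroid hormone, had log2 signals of 4.73, 4.78 and 4.45 in Pck1-CKO and 4.09, 4.10 and 4.16 in WT kidneys. Its means were 4.65 ± 0.18 in Pck1-CKO and 4.12 ± 0.04 in WT (SD, n = 3 each), a log2 change of 0.54 ± 0.09 SE (interval 0.30 to 0.77, limma adjusted p = 0.0349). The groups did not overlap, and Pck1-CKO 3 was the lowest of its group. All 3 probes of the gene differed alike, by 0.54, 0.53 and 0.54.

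Slco1a1 encodes a carrier of bile acids, steroid conjugates and other anions whose expression in mouse kidney is driven by androgens. It had log2 signals of 2.52, 2.64 and 2.27 in Pck1-CKO and 1.99, 1.97 and 1.92 in WT kidneys, with means of 2.48 ± 0.19 in Pck1-CKO and 1.96 ± 0.04 in WT (SD, n = 3 each). The log2 change was 0.52 ± 0.10 SE (interval 0.27 to 0.76, limma adjusted p = 0.0392), and its second probe differed by 0.43. No WT sample reached the lowest Pck1-CKO sample. Besides the left-out samples named above, the call was lost with quantile normalization, without the filter on dim probes and with a replicate block, and the log2 change lay between 0.43 and 0.62 over all alternatives.

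Other genes with a sex bias in mouse kidney were compared beside it. Of 6 genes known to be higher in males, 2 rose in Pck1-CKO, namely Cyp4a12a, a fatty acid hydroxylase gene, with a log2 change of 1.90 (limma adjusted p = 0.0043), and Odc1, the enzyme gene of polyamine synthesis, with 0.64 (adjusted p = 0.0442), while Kap, an androgen-regulated gene, had -0.06 (adjusted p = 0.613). Of 3 genes known to be higher in females, 2 fell, namely the amino acid transporter gene Slc7a12 (log2 change -2.08, adjusted p = 0.02) and the prolactin receptor gene Prlr (-1.59, adjusted p = 0.0236). Cyp4a12a passed with any 1 sample left out, Odc1 only without Pck1-CKO 3, and Slc7a12 and Prlr only without Pck1-CKO 3 or WT 3. The Y-linked genes Ddx3y, Kdm5d, Uty and Eif2s3y each had a probe well above background on all 6 arrays, and Xist had none on any array. The part of these differences in the change of Slco1a1 was not tested.

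**Figure D3:**
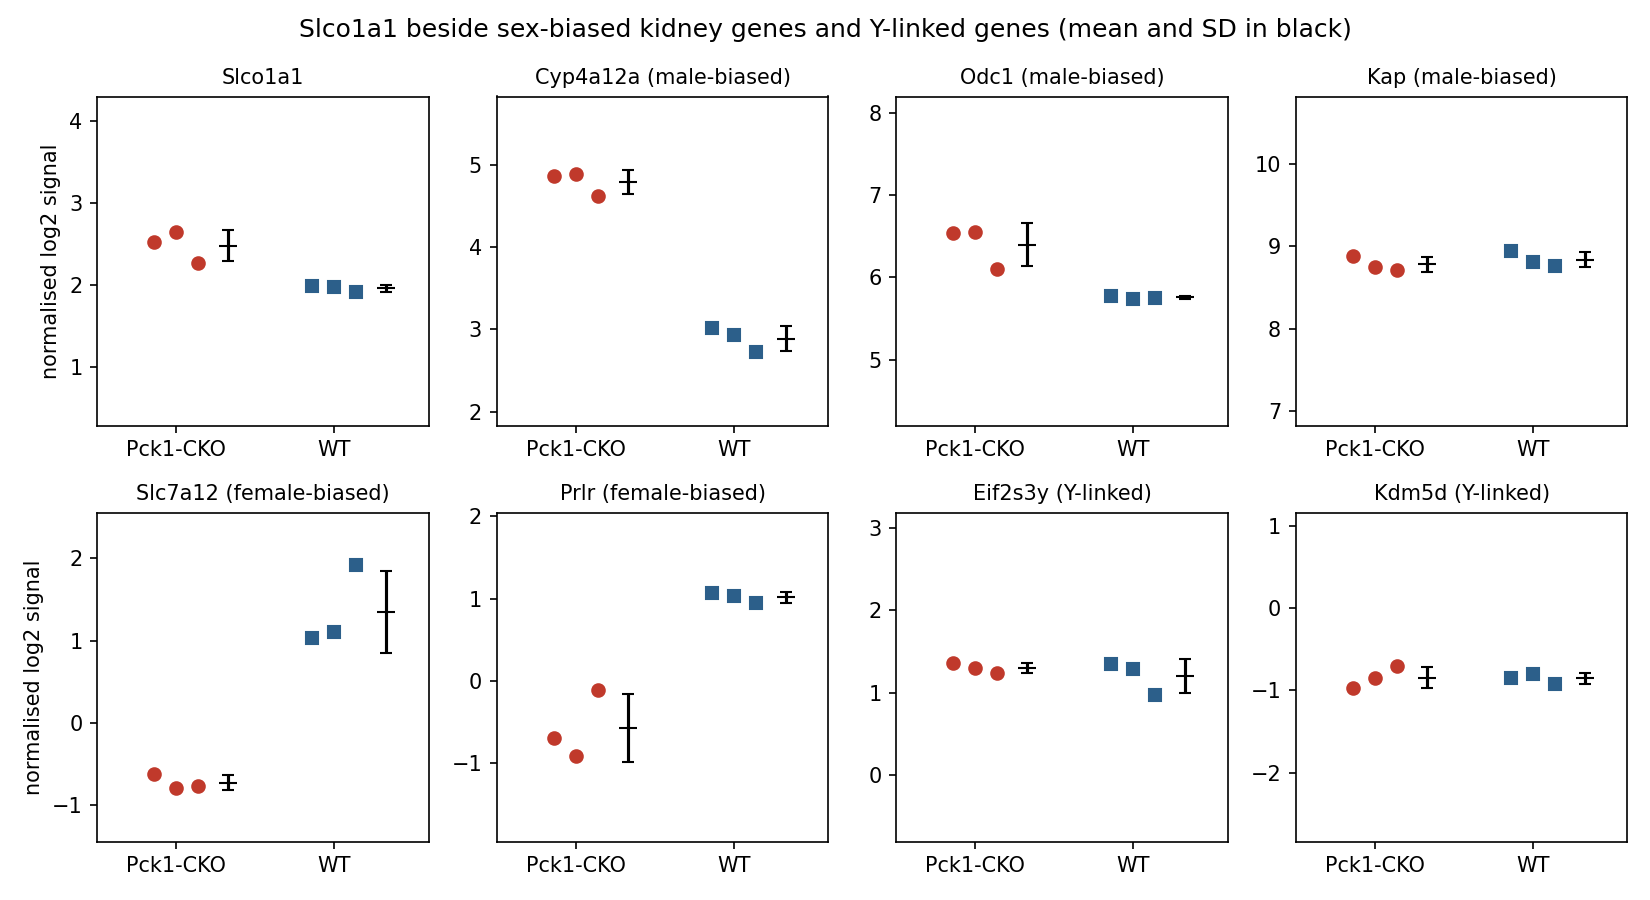
Log2 signal relative to the array's 75th percentile (vertical axis) of Slco1a1, of genes with a known male or female bias in mouse kidney and of the Y-linked Eif2s3y and Kdm5d, 1 point per sample, Pck1-CKO left of WT, with means and SDs in black. Cyp4a12a and Odc1 were higher and Slc7a12 and Prlr lower in the Pck1-CKO samples, and Slco1a1 was higher.

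Slco4c1, which encodes an uptake carrier on the blood side of the proximal tubule known in rat and human kidney for digoxin and uraemic toxins, fell. Its log2 signals were -0.88, -0.85 and -0.89 in Pck1-CKO and -0.63, -0.60 and -0.71 in WT kidneys (log2 change -0.23 ± 0.05 SE, interval -0.34 to -0.11, limma adjusted p = 0.0435). The groups did not overlap, and the second probe differed by -0.17. The call held in 5 of the 15 alternatives, the fewest of the 8 genes.

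The other Slco genes tested overlapped between the groups. Slco1a6 had log2 signals of 3.54, 3.61 and 3.48 in Pck1-CKO and 3.11, 3.14 and 3.55 in WT kidneys (0.27 ± 0.13, adjusted p = 0.201), with WT 3 among the Pck1-CKO samples. Slco2a1, the prostaglandin transporter gene, had a log2 change of -0.15, Slco1a4 of 0.08, Slco2b1 of 0.04 and Slco4a1 of -0.0005, and their adjusted p lay between 0.29 and 0.997.

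Slc47a1 encodes MATE1, the exchanger of organic cations for protons on the urine side. It had log2 signals of 6.65, 6.71 and 6.70 in Pck1-CKO and 6.53, 6.50 and 6.62 in WT kidneys (0.14 ± 0.05, interval 0.02 to 0.26, adjusted p = 0.128). Its relative Slc47a2, which encodes MATE2, had -3.54, -3.08 and -3.86 in Pck1-CKO and -4.34, -4.38 and -4.34 in WT kidneys (0.86 ± 0.19, interval 0.39 to 1.34, adjusted p = 0.0531). Both were higher in all Pck1-CKO samples than in any WT sample, and neither passed the test. Without Pck1-CKO 3 the log2 change of Slc47a2 was 1.04 and passed (adjusted p = 0.0282), and it also passed with quantile normalization, with normexp, with a trend and robust variance and with array weights. Leaving out Pck1-CKO 3, the sample of its group nearest to WT, had to widen the difference.

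Of the P-glycoprotein genes, Abcb1a fell and Abcb1b did not pass. Both encode pumps that expel hydrophobic drugs, the task of a single gene in humans. Abcb1a had log2 signals of -2.44, -2.37 and -2.15 in Pck1-CKO and -1.51, -1.52 and -1.42 in WT kidneys, with means of -2.32 ± 0.15 in Pck1-CKO and -1.48 ± 0.05 in WT (SD, n = 3 each). Its log2 change was -0.84 ± 0.09 SE (interval -1.05 to -0.63, limma adjusted p = 0.0152), the groups did not overlap, and the adjusted p lay between 0.0027 and 0.0801 over the alternatives. Abcb1b had -1.67, -1.79 and -1.31 in Pck1-CKO and -1.31, -1.32 and -1.43 in WT kidneys (-0.23 ± 0.13, adjusted p = 0.268), where Pck1-CKO 3 lay level with the highest WT sample and the other Pck1-CKO samples below all of them. A second, fainter probe of Abcb1b differed by -0.58, with overlapping groups.

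Without Pck1-CKO 3, Abcb1b also passed, with a log2 change of -0.37 (limma adjusted p = 0.041). Since that sample was the one of its group nearest to WT, leaving it out had to widen the difference. Whether the probes of this pair of genes bind each other's transcripts was not tested, and the difference between their changes was not tested either. Abcg2, which encodes the pump BCRP, had 6.57, 6.61 and 6.61 in Pck1-CKO and 6.53, 6.58 and 6.70 in WT kidneys (-0.01 ± 0.06, interval -0.15 to 0.12, adjusted p = 0.902), and the groups overlapped.

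Among the multidrug resistance proteins of the Abcc family, Abcc1 fell. It encodes MRP1, an exporter of glutathione conjugates on the blood side of many cells, and had log2 signals of -0.21, -0.26 and -0.14 in Pck1-CKO and 0.17, 0.18 and 0.14 in WT kidneys. The means were -0.20 ± 0.06 in Pck1-CKO and 0.16 ± 0.02 in WT (SD, n = 3 each), a log2 change of -0.37 ± 0.05 SE (interval -0.48 to -0.25, limma adjusted p = 0.0221). The groups did not overlap. The Abcc exporters of the urine side described here, Abcc2 and Abcc4, did not pass. Abcc2 (MRP2) had 3.23, 3.20 and 3.34 in Pck1-CKO and 3.35, 3.37 and 3.68 in WT kidneys (-0.21 ± 0.10, adjusted p = 0.221), all Pck1-CKO samples being lower. Abcc4 (MRP4) had 1.21, 1.50 and 1.88 in Pck1-CKO and 1.64, 1.89 and 2.25 in WT kidneys (-0.40 ± 0.22, interval -0.94 to 0.15, adjusted p = 0.273), with a range within each group wider than the difference.

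Abcc3 (MRP3) had a log2 change of -0.22 ± 0.12 (adjusted p = 0.274) with overlapping groups. Abcc5, Abcc6 and Abcc10 had changes between -0.0022 and 0.02, and their groups overlapped too. The channel subunit genes differed in opposite directions without passing the test. Abcc8 had log2 signals of -3.54, -3.63 and -3.46 in Pck1-CKO and -4.17, -3.79 and -3.90 in WT kidneys (0.41 ± 0.11, adjusted p = 0.071). Abcc9, found in smooth muscle and other vessel-wall cells, had -0.45, -0.51 and -0.20 in Pck1-CKO and -0.02, -0.18 and -0.01 in WT kidneys (-0.32 ± 0.10, adjusted p = 0.0943), and passed without Pck1-CKO 3 (adjusted p = 0.0386). Pck1-CKO 3 was the sample of its group nearest to WT, so leaving it out had to widen that difference.

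**Figure D4:**
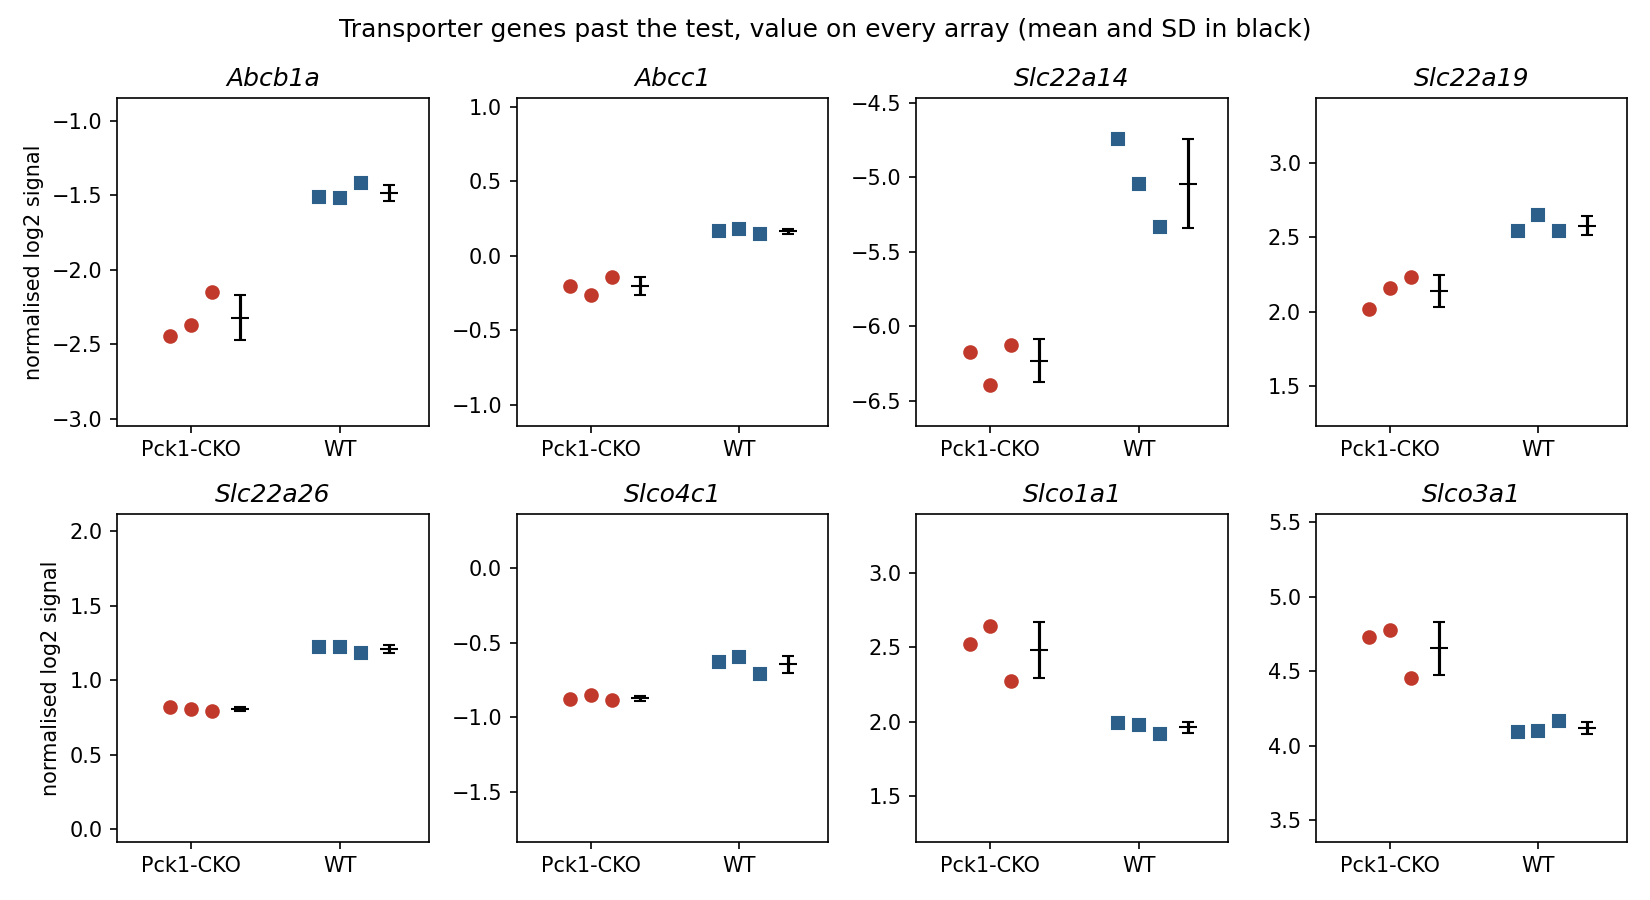
Log2 signal relative to the array's 75th percentile (vertical axis) of the 8 genes that passed the limma test, 1 point per sample, Pck1-CKO left of WT, with means and SDs in black. In each gene the Pck1-CKO and WT samples do not overlap, and Slc22a14 was well above background in the WT samples alone.

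Probes of 1 gene gave like differences for most genes. Of the 47 genes, 14 had several probes that passed the filter on dim probes, and 15 of their 18 other probes had a difference of the same sign as the probe used. Probes that did not pass the filter were not counted, and some of these, as for Abcc8 and Slc22a15, had the opposite sign. Among the 8 genes that passed, 3 had other probes (Slco3a1, Slco1a1 and Slco4c1), and all 4 of these shared the sign.

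**Figure D5:**
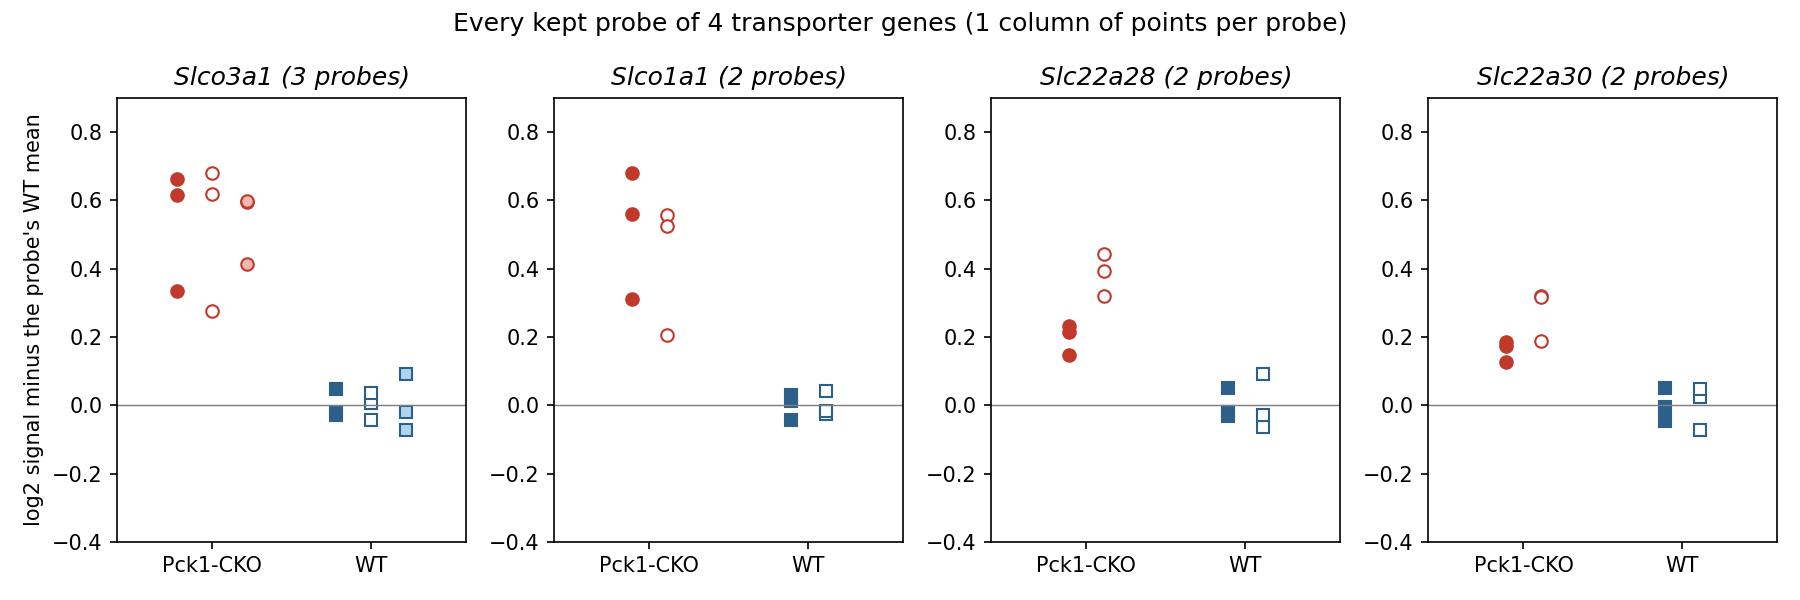
Log2 signal minus the same probe's WT mean (vertical axis) for each probe of Slco3a1, Slco1a1, Slc22a28 and Slc22a30, 1 point per sample and 1 column of points per probe, Pck1-CKO left of WT, with filled points for the probe used. Each Pck1-CKO sample lies above every WT sample of the same probe, and the mean differences of the other probes are 0.43 for Slco1a1, 0.38 for Slc22a28 and 0.28 for Slc22a30.

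Genes that serve the transporters were compared from lists of their own. Of 10 genes for substrate coupling and scaffolds, such as dicarboxylate carriers and the proteins that anchor transporters in the brush border, 0 rose and 1 fell: Slc13a1, the sulphate cotransporter gene, with a log2 change of -0.71 (limma adjusted p = 0.0141). Its log2 signals were 5.23, 5.38 and 5.35 in Pck1-CKO and 5.98, 5.99 and 6.11 in WT kidneys, without overlap. Of 16 regulators, among them nuclear receptors, 0 passed limma's test, and 2 higher and 1 lower had an unadjusted p under 0.05. Nr1i2, the gene of the xenobiotic receptor PXR, had a log2 change of -0.53 (adjusted p = 0.0531), and Hnf4a 0.04.

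Of 6 urate-handling genes tested, 0 rose and 1 fell, Slc17a4, an organic anion exporter gene, with a log2 change of -0.60 (limma adjusted p = 0.0146). Yet 4 of the 6 changes were positive, and 2 higher and 1 lower had an unadjusted p under 0.05. Slc17a1 (0.36, limma adjusted p = 0.0526) and Slc17a3 (0.19, adjusted p = 0.128) were higher in all Pck1-CKO samples. The summed signal of the 6 was 106 to 116 in Pck1-CKO and 95.5 to 99.5 in WT kidneys. Among 16 other transporters of drugs and metabolites, 0 rose and 1 fell, Slc51a, a subunit of the bile acid and steroid exporter OSTα-OSTβ, with -0.95 (adjusted p = 0.0239). Over all these lists, 48 genes were tested outside the transporter families, of which 3 were lower, or 6.25%, and 0 higher, beside 3.7% lower and 4.34% higher of all genes. With Pck1-CKO 1, Pck1-CKO 2 or WT 2 left out, 0 passed limma's test. Without WT 1 it was 1, lower, and without Pck1-CKO 3 or WT 3 it was 4 higher, with 4 lower without Pck1-CKO 3 and 3 lower without WT 3.

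In whole-kidney RNA, fewer cells of a type and less RNA per cell cannot be told apart. Of 10 markers of the early proximal tubule (segments S1 and S2), 0 passed, 3 lower ones had an unadjusted p under 0.05, and their summed signal relative to the 75th percentile was 747 to 807 in Pck1-CKO and 786 to 845 in WT kidneys. Of 6 markers of the late segment (S3), where Slc22a19 is found, Acy3 rose, and the summed signal was 831 to 891 in Pck1-CKO and 752 to 797 in WT kidneys. Without Acy3 the sums overlapped, at 478 to 492 in Pck1-CKO and 460 to 487 in WT kidneys, and the log2 changes of the other 5 lay between -0.11 and 0.12. All 7 adipose markers had positive changes and 4 rose, with a summed signal of 97.9 to 142 in Pck1-CKO and 14.3 to 30.3 in WT samples.

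Each sum is weighted towards the brightest markers of its list. Principal cells of the collecting duct had 2 of 4 markers higher (sums 67.2 to 67.8 in Pck1-CKO, 51.0 to 58.6 in WT). Intercalated cells had 2 of 4 lower (sums 40.8 to 41.1 in Pck1-CKO, 53.8 to 57.5 in WT). Their marker Foxi1 went the other way, with a log2 change of 0.27 and overlapping groups. Podocytes had 2 of 5 lower (sums 23.7 to 25.5 in Pck1-CKO, 28.0 to 30.5 in WT), while Podxl (0.04) and Wt1 (0.06) had positive log2 changes. Endothelium, which carries Abcb1a in many organs, had 0 of 5 past the test, 1 lower with an unadjusted p under 0.05, and sums of 31.9 to 33.6 in Pck1-CKO and 33.9 to 35.4 in WT. Smooth muscle had 1 of 3 higher, with sums of 20.3 to 21.7 in Pck1-CKO and 18.0 to 18.4 in WT. Its marker Myh11 had a negative log2 change (-0.17). The distal convoluted tubule had 1 of 3 markers lower, Slc12a3, and 2 of the 3, both lower, had an unadjusted p under 0.05. The sums over all its markers were 13.5 to 15.1 in Pck1-CKO and 18.0 to 20.0 in WT. The thick ascending limb had 1 of 4 higher, Cldn16, and 3 of the 4, all higher, had an unadjusted p under 0.05. The remaining marker, Cldn10, had a log2 change of -0.08. Its sums over all markers were 419 to 441 in Pck1-CKO and 378 to 400.4 in WT. Of the markers of red cells (2), macrophages (4), lymphocytes (3) and adrenal cortex (2), 0 passed limma's test, although both of red cells, with positive changes, 1 of macrophages and 2 of lymphocytes, with negative ones, had an unadjusted p under 0.05. Sums of red cell markers were 270 to 344 in Pck1-CKO and 212 to 269 in WT, and those of lymphocytes 0.71 to 0.84 in Pck1-CKO and 0.88 to 0.95 in WT. With Pck1-CKO 1 or Pck1-CKO 2 left out, 1 marker of all these lists passed, Aqp6 of intercalated cells, which was lower, while all 7 adipose markers kept an unadjusted p under 0.05. The same single marker passed without WT 2. The part of these cells in the changes of the transporter genes was not tested.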

How the data were processed

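Cy3-labelled RNA of 6 whole-kidney samples was hybridised to 1-colour arrays. The authors' scanner files, made with version 10.7.1.1 of Agilent Feature Extraction, hold linear intensity values, and their processed signal had the background subtracted, per the file headers. A linear ratio per probe in the deposited series matrix served as an alternative. Spots with outlier flags were left out, spots of a probe averaged, log2 taken and each array's 75th percentile subtracted. RefSeq accessions gave the gene names. A probe was kept if 3 or more of the 6 arrays had it well above background, and the brightest one stood for its gene. Each gene was then compared between genotypes with limma 3.58.1 (lmFit, eBayes; R 4.3.3), 2-sided and with no covariate, at a Benjamini-Hochberg adjusted p of 0.05 over 17136 genes. The procedure was checked on simulated data. Values in every sample are given for genes that passed, genes with groups that did not overlap and a change of at least 0.25, the 6 brightest, and the main renal carriers and pumps. Some relatives and neighbours of these were added after their values were seen. So were Kap, Hnf4a, Slc17a1, Slc17a3 and cell type markers that went against their list. Some genes are counted but not reported here. The members, the lists and these rules were chosen with earlier results of these data known. Alternatives covered normalization, background, source of values, filter, probe choice, variance model, flags, array weights, a replicate block and left-out samples. Normexp (offset 50) took foreground and background medians. Promoter windows came from RefSeq (GRCm38.p6) and were aligned with Biopython 1.88. The sample numbers were not used as pairs.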

Additional observations from a re-analysis of the deposited data

How the results depend on the processing

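The 8 transporter genes that passed kept their direction in all 15 alternatives. Outlier flags kept, or the series matrix in place of the scanner files, gave the same 2 higher and 6 lower. Normexp gave 5 higher, no filter on dim probes 0 higher and 2 lower (Abcb1a and Slc22a26), eBayes with trend and robust 7 higher, and array weights 11 higher and 13 lower, where 34.4% of all genes were called. Leaving out 1 sample gave 0 to 3 higher and 0 to 10 lower. The sample number as a replicate block gave 0 higher and 0 lower, with 23 genes at an unadjusted p under 0.05 and 0.0233% of all genes called. Same-numbered samples lay in the same column of the slide. Their deviations from the group means correlated by -0.00097, -0.115 and -0.023, and those of differently numbered samples by -0.076 to 0.116. With 3 samples a group, these values cannot tell whether the numbers pair the samples. The median log2 change was -0.039 with quantile normalization and -0.044 to 0.037 with 1 sample left out. For the related pathway lists, the genes higher were 1 with quantile normalization, normexp or trend and robust, 12 with array weights and 0 to 4 with 1 sample left out. The genes lower in those lists were 5 with trend and robust or array weights, 0 with the replicate block and 0 to 4 with 1 sample left out. The cause of these differences was not tested.

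Changes near 0 turned sign under some alternatives. With quantile normalization the log2 change was -0.013 for Abcc10 and -0.0025 for Abcc6. With normexp it was -0.0014 for Abcc10, 0.0024 for Abcc5, -0.013 for Slc22a16 and -0.021 for Slco1a4. With array weights it was 0.020 for Abcg2 and 0.040 for Slc22a23. With 1 sample left out, it lay between -0.014 and 0.052 for Abcc10, -0.030 and 0.012 for Abcc5, -0.026 and 0.073 for Abcc6, -0.049 and 0.037 for Abcg2, and -0.010 and 0.10 for Slc22a12. It lay between -0.13 and 0.12 for Slc22a16, -0.043 and 0.040 for Slc22a23, -0.17 and 0.042 for Slc22a4, -0.0045 and 0.13 for Slco1a4, and -0.065 and 0.052 for Slco4a1.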
